A study of Mus musculus with 48 samples.

Results

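Fgf4, the ligand, and the FGF receptors Fgfr1, Fgfr2, Fgfr3 and Fgfr4 were followed in 48 single cells of the mouse inner cell mass (ICM), to describe which cells carried the ligand transcript and which receptors each cell carried. Fibroblast growth factors bind receptor tyrosine kinases together with heparan sulfate at the cell surface, and the receptor passes the signal through Frs2, Grb2, Ras, Raf and Mek to Erk. In the mouse blastocyst, Fgf4 made by epiblast precursors is known to act on neighbouring cells and to promote the primitive endoderm fate, while Nanog marks the first lineage and Gata6 the second. Transcription of Fgf4 in pluripotent cells depends on an enhancer bound by Pou5f1 and Sox2. The 5 genes were taken by symbol from the 49671 genes with values. Of these, 21943 had a count in at least 1 cell, the 5 members among them.

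The cells came from the ICMs of 3 embryos at E3.75, from crosses of Pdgfra H2B-GFP/+ mice with F1 hybrids (C57BL/6JxCBA/J) by natural mating. The sample titles name every cell WT, while the study's methods give the embryos as positive for the reporter. Its cassette lies at the Pdgfra locus, and whether it affects the Pdgfra counts was not tested. The allele places GFP in the nuclei of cells that express Pdgfra, a gene of the primitive endoderm lineage, and embryos were chosen in which GFP-positive cells lay scattered among the others. Trophectoderm was removed by immunosurgery, cells were dissociated without any further treatment, and each cell was sequenced with Smart-seq2, which reads full-length cDNA and carries no molecular identifiers. The study's dendrogram of these cells, read by eye, placed 25 cells on the branch of epiblast precursors (pEPI) and 23 on that of primitive endoderm precursors (pPrE).

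No label gives the embryo of a cell, so the 48 cells are 1 sample, and an SD describes the spread between cells. Since the same expression values gave the branches, a difference between branches is a description here and was not tested. Total counts per cell ranged from 1718970 to 7342785, with a median of 3751329 in pEPI and 4251373 in pPrE cells. Levels are given as FPKM, which scales counts by the exon length of a gene and by the size of the library. A cell was said to carry a gene at 1 CPM (a count scaled to the total of its cell) or more, which is 1.72 counts in the shallowest cell and 7.34 in the deepest. Shares of cells have exact (Clopper-Pearson) 95% intervals, which take cells as independent draws, and the 95% intervals of log2 ratios are approximate and taken from the summed counts. Intervals of log2 ratios cover counting error only, and without molecular identifiers reads cannot be taken as separate molecules. Intervals of shares cover the drawing of cells only, and neither kind covers differences between embryos.

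Y-linked counts, those on 4 genes of the Y chromosome (Kdm5d, Uty, Eif2s3y and Ddx3y), split the cells sharply. They summed to 242 to 1298 in 29 cells, 17 pEPI and 12 pPrE, and to at most 1 in the other 19 cells, 8 pEPI and 11 pPrE. Log2 ratios of the members, and some shares, levels and correlations, are therefore also given within these sets. Gene lists, likeness and receptor make-up are not.

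Markers differed between the branches in the direction of their names. The same expression values gave the branches, and the marker lists were chosen with earlier results of these data known. The counts of markers are therefore a description and do not test the branch names. Of the 8 pEPI markers, 5 were lower by at least 2-fold in pPrE cells (Nanog, Sox2, Klf2, Prdm14 and Morc1), with a median log2 ratio of pPrE over pEPI of -2.23 over the 8, where 9.03% of all genes with a mean of at least 1 FPKM were lower. Nanog, a pluripotency factor, had means of 315 and 43.7 FPKM. Of the 12 pPrE markers, 11 had a mean of at least 1 FPKM over the 48 cells, and all 11 were higher in pPrE by at least 2-fold, against 6.2% of all genes (Gata6, Pdgfra, Sox17, Gata4, Sox7, Lama1, Lamb1, Col4a1, Col4a2, Serpinh1 and Sparc). Dab2, an endocytic adaptor, lay below that level. The GATA factor Gata6 had means of 9.61 FPKM in pEPI and 24.4 in pPrE.

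Trophectoderm markers were mostly low, apart from a keratin. Of 11 genes, 10 had a count and 4 a mean of at least 1 FPKM (Eomes, Krt8, Krt18 and Plac1), and the list summed to 49.2 FPKM in pEPI and 35.6 in pPrE. Krt8 was the most abundant, with 40.2 FPKM in pEPI and 27.95 in pPrE, and Krt18 was lower in pPrE, with a log2 ratio of -1.17. Cdx2, which defines the trophectoderm, had means of 0.409 and 0.00626 FPKM and was carried by 2 pEPI cells. Gata3 was carried by 2 pEPI and 6 pPrE cells. Eomes was carried by 9 pEPI and 12 pPrE cells, with means of 2.87 and 3.57 FPKM.

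Across all genes with a mean of at least 1 FPKM, 10880 in number, 675 (6.2%) were higher in pPrE by a log2 ratio of at least 1 and 982 (9.03%) were lower, around a median of 0.00. Of the 5 members, 4 passed this filter, and of these Fgfr2 and Fgfr3 were higher, Fgf4 was lower and Fgfr1 lay within the fold. Fgfr4 had a mean of 0.855 FPKM and did not pass. By the size of the log2 ratio, Fgf4 exceeded 98.2% of the 10880 genes, Fgfr2 97.8% and Fgfr1 47.2%. Fgfr3 passed the filter through its pPrE cells alone (means of 0.0722 and 3.57 FPKM), so it is not ranked.

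Fgf4, the secreted ligand (ENSMUSG00000050917, chromosome 7 of GRCm38, 144847367 to 144865243, plus strand), ranged in pEPI cells from 0 to 112.6 FPKM, with a median of 20.4. In pPrE cells it ranged from 0 to 15.2 FPKM, with a median of 0.0643. The high cells were thus all pEPI, but the branches overlapped, because some pEPI cells had none and a few pPrE cells had some. Means were 29.3 ± 31.6 FPKM (SD, n = 25 cells) and 2.11 ± 4.21 (SD, n = 23 cells), from 8872 and 694 counts. The log2 ratio of pPrE over pEPI was -3.80 (-3.91 to -3.69), and the means lay less than the SD of pEPI cells apart. When each cell was paired with each cell of the other branch, pPrE was higher in 13.9% of pairs and 7.65% were tied.

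Fgf4 was carried by 20 of 25 pEPI cells (80.0%, 59.3% to 93.2%) and by 6 of 23 pPrE cells (26.1%, 10.2% to 48.4%). The 5 pEPI cells without it were those in wells B4, E4, C1, E7 and A3. C1 had 1 count (0.0744 FPKM) and the other 4 had no count. They held 50.7 to 132 FPKM of Nanog, where the pEPI branch as a whole had a mean of 315. The 6 pPrE cells with Fgf4 were A1, with 15.2 FPKM, F5, with 11.5, and C6, F6, D1 and D7, with 7.81, 6.35, 4.901 and 1.998. A1 also had 308 FPKM of Nanog and 2.80 of Gata6, the highest Nanog and the lowest Gata6 of the pPrE branch. At a minimum of 1 count in place of 1 CPM, 12 of 23 pPrE cells had Fgf4 (52.2%).

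The Fgf4 level also moved with the set of Y-linked counts. In pEPI cells without Y-linked counts the mean was 56.5 ± 36.2 FPKM (SD, n = 8 cells), from 6.34 to 112.6, and 8 of 8 carried the gene. In pEPI cells with Y-linked counts it was 16.6 ± 19.4 (SD, n = 17 cells), from 0 to 64.0, and 12 of 17 did. The 5 pEPI cells without Fgf4 were all in the second set. Among pPrE cells, 1 of 12 with Y-linked counts carried Fgf4 and 5 of 11 without them. Between the branches, the log2 ratio was -3.67 (-3.89 to -3.45) among cells with Y-linked counts and -4.24 (-4.38 to -4.11) among the others. The first rests on A1, which held 97.3% of the 183 pPrE counts of that set, and was -8.60 without it. The lineage markers differed between the sets too, though not alike in both branches. Nanog was 504 ± 193 FPKM in pEPI cells without Y-linked counts and 226 ± 175 in those with them (SD, n = 8 and 17 cells), and Gata6 was 4.56 ± 7.78 and 12 ± 13.8. The 8 pEPI markers summed to 1704 ± 363 and 918 ± 387 FPKM, and the 12 pPrE markers to 104 ± 30.2 and 189 ± 82. In pPrE cells without and with Y-linked counts (SD, n = 11 and 12 cells), Nanog was 29.7 ± 19.9 and 56.5 ± 99.6 FPKM and Gata6 28.5 ± 12.7 and 20.6 ± 10.8. There the pEPI markers summed to 556 ± 284 and 435 ± 168, in the same order as in pEPI cells. The pPrE markers summed to 858 ± 259 and 570 ± 158, in the reverse order, and the order of mean Nanog and of Gata6 was reversed as well. For Nanog this held for the means only. Its medians in pPrE cells without and with Y-linked counts were 32.5 and 5.76 FPKM, in the order of the pEPI medians (532 and 174). The mean with Y-linked counts includes A1, with 308 FPKM. Whether embryo, sex or the lineage state of the cells had a part in these levels was not tested.

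**Figure D1:**
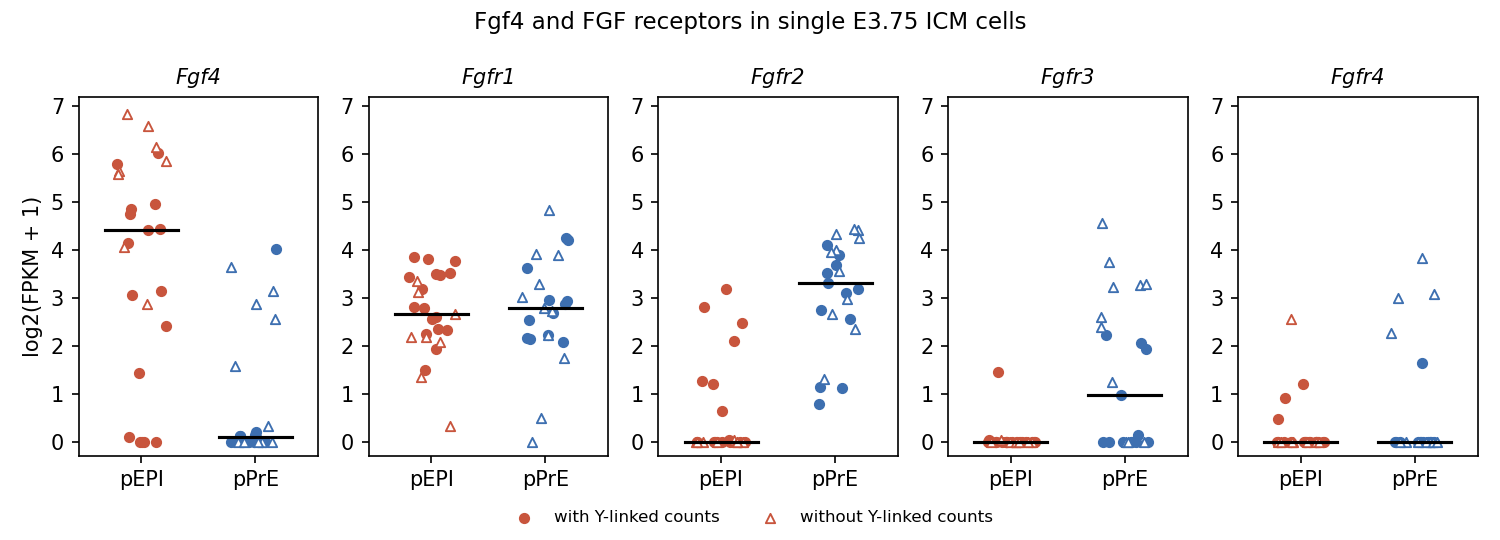
Level of Fgf4 and of each FGF receptor in 25 pEPI and 23 pPrE cells, as log2(FPKM + 1); each point is a cell, filled circles are cells with Y-linked counts, open triangles are cells without them, and bars are medians. Fgf4 is highest in pEPI cells, Fgfr1 overlaps between the branches, and Fgfr2 and Fgfr3 are highest in pPrE cells.

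Fgfr1, the receptor that nearly every cell shared (ENSMUSG00000031565, chromosome 8, 25513654 to 25575718, plus strand), ranged from 0.257 to 13.5 FPKM in pEPI cells, with a median of 5.35. In pPrE cells it ranged from 0 to 27.3 FPKM, with a median of 5.90. The branches overlapped over most of their range. Means were 6.42 ± 3.81 FPKM (SD, n = 25 cells) and 7.81 ± 6.52 (SD, n = 23 cells), from 6171 and 8451 counts, with a log2 ratio of 0.28 (0.24 to 0.33). This difference lay below the SD of both branches, and pPrE was higher in 53.0% of pairs.

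Fgfr1 was carried by 25 of 25 pEPI cells (100%, 86.3% to 100%) and 22 of 23 pPrE cells (95.7%, 78.1% to 99.9%). The cell without it was D1, which had 0 counts of Fgfr1 and the highest Fgfr3 of all 48 cells. D1 also had the fewest total counts of all cells (1718970). F7, the cell with the most total counts, was the highest in Fgfr1 and held 23.2% of the pPrE counts. Without F7 the log2 ratio was 0.11. Cells with Y-linked counts gave 0.02 (-0.04 to 0.08), or -0.17 without E6, their highest pPrE cell. Cells without Y-linked counts gave 0.92 (0.83 to 1.01), with means of 4.28 FPKM in pEPI and 8.10 in pPrE.

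Fgfr2 (ENSMUSG00000030849, chromosome 7, 130162451 to 133123350, minus strand), the receptor best known from the primitive endoderm, was present in every pPrE cell. It ranged there from 0.733 to 20.6 FPKM, with a median of 8.88. In pEPI cells it ranged from 0 to 8.09 FPKM, with a median of 0. The branches overlapped, since B2 of pEPI reached 8.09 FPKM and the lowest pPrE cells (B5, B3, A8 and F5) lay between 0.733 and 1.49. Means were 1.01 ± 2.16 FPKM (SD, n = 25 cells) and 9.85 ± 6.41 (SD, n = 23 cells), from 1016 and 10366 counts. The log2 ratio was 3.28 (3.19 to 3.38), a difference larger than the SD in either branch, and the pPrE cell was the higher one in 94.3% of pairs.

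Of 23 pPrE cells, 23 carried Fgfr2 (100%, 85.2% to 100%), against 7 of 25 pEPI cells (28%, 12.1% to 49.4%). The 7 were B2 with 8.09 FPKM, E5 with 6.04, A3 with 4.58, E7 with 3.31, and E2, E4 and C2 with 1.39, 1.30 and 0.559. B2 alone held 37.99% of the pEPI counts. Apart from E2, the 7 cells lay at positions 17 to 25 of the dendrogram order, where pPrE begins at position 26. Branches of a dendrogram can be turned at each fork, so a position near 26 does not measure likeness to pPrE cells. Cells were also grouped into 2 Ward clusters made without the members. The cluster of 16 cells, all pEPI, carried Fgfr2 in 6.25% of cells, and the other, of 32 cells with 9 pEPI among them, in 90.6%. Between these clusters the log2 ratio was 6.43, against 3.28 between the branches. All 7 were cells with Y-linked counts, 7 of 17, while the 8 pEPI cells without Y-linked counts held 1 count of Fgfr2 in all and 0 of 8 carried it, which allows a share of up to 37.5% (3 over the number of cells). Cells with Y-linked counts gave a log2 ratio of 2.35 (2.25 to 2.45) and those without 11.70 (9.22 to 17), the second resting on that 1 count.

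Fgfr3 (ENSMUSG00000054252, chromosome 5, 33721674 to 33737068, plus strand), a receptor in the same family that was carried by fewer cells, ranged in pPrE from 0 to 22.6 FPKM, with a median of 0.964. In pEPI its median was 0 and its highest value 1.75 FPKM, in A6. It was carried by 12 of 23 pPrE cells (52.2%, 30.6% to 73.2%) and by 1 of 25 pEPI cells (4%, 0.101% to 20.4%). Means were 0.0722 ± 0.349 FPKM (SD, n = 25 cells) and 3.57 ± 5.51 (SD, n = 23 cells), from 49 and 2339 counts, a difference smaller than the SD between pPrE cells. The log2 ratio was 5.63 (5.22 to 6.07), but A6 held 95.9% of the pEPI counts, and without it the ratio was 10.52, against 2 counts.

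Within pPrE, Fgfr3 was high in D1 (22.6 FPKM), D7 (12.4), C5 (8.78), F5 (8.58) and D3 (8.40), all cells without Y-linked counts. Of the pPrE cells, 8 of 11 without Y-linked counts carried it (mean level 6.50 ± 6.83 FPKM, SD, n = 11 cells), as did 4 of 12 with them, at 0.893 ± 1.44 (SD, n = 12 cells). The summed pPrE markers were also higher in the first of these sets (858 and 570 FPKM), as was Gata6 (28.5 and 20.6), and whether embryo, sex or lineage state had a part in the Fgfr3 level was not tested. Cells with Y-linked counts gave a log2 ratio of 3.10 (2.66 to 3.57), but A6 held 97.9% of their 48 pEPI counts, and the ratio was 8.95 without it. Those without gave 10.78 (8.30 to 16.08) against 1 pEPI count.

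Fgfr4 (ENSMUSG00000005320, chromosome 13, 55152640 to 55168759, plus strand) was carried by 9 of the 48 cells, the fewest of the receptors over both branches, although in pEPI Fgfr3 was rarer. It had a median of 0 in both branches, with highest values of 4.9 FPKM in pEPI and 13.3 in pPrE. It was carried by 4 of 25 pEPI cells (16%, 4.54% to 36.1%), C4, F3, A7 and C2, and by 5 of 23 pPrE cells (21.7%, 7.46% to 43.7%), D3, D1, F6, C6 and F2. Its means of 0.299 ± 1.01 (SD, n = 25 cells) and 1.46 ± 3.37 FPKM (SD, n = 23 cells), from 130 and 406 counts, differed by less than the SD between pPrE cells.

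The log2 ratio of Fgfr4 was 2.29 (2.0 to 2.59). C4 held 76.2% of the pEPI counts and D3 31.8% of those in pPrE, and the ratio was 3.77 without C4 and 1.63 without D3. Cells with Y-linked counts gave 0.22 (-0.50 to 0.95), where F2 held all 39 pPrE counts, and 1.16 without F3, their highest pEPI cell. Those without gave 2.22 (1.90 to 2.56), where C4 held all 99 pEPI counts, and 1.57 without D3. Of the 9 cells, the 5 pPrE cells also carried Fgfr3, and the 4 pEPI cells did not.

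By FPKM, which accounts for gene length, the order of mean levels in pEPI was Fgf4 (29.3), Fgfr1 (6.42), Fgfr2 (1.01), Fgfr4 (0.299) and Fgfr3 (0.0722). In pPrE it was Fgfr2 (9.85), Fgfr1 (7.81), Fgfr3 (3.57), Fgf4 (2.11) and Fgfr4 (1.46). Neighbours in the pPrE order differed by less than the larger of their SDs, as did all neighbours in the pEPI order but Fgfr1 and Fgfr2. Fgfr1 made up 82.3% of the summed mean receptor FPKM in pEPI and 34.4% in pPrE, where Fgfr2 made up 43.4% and Fgfr3 15.7%. The sum of the 4 receptors had a median of 5.97 FPKM per pEPI cell (0.287 to 20.7) and of 22.4 per pPrE cell (4.23 to 49.1).

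Every cell carried at least 1 receptor, so all 26 cells with Fgf4 carried the ligand together with a receptor. Fgfr1 was carried by 25 of these 26 cells, D1 being the exception. It was carried by 47 of all 48 cells, so it was not particular to cells with Fgf4. Fgfr2 was carried by 10 of the 26. In pEPI, 14 of 25 cells had 1 receptor, which was Fgfr1 in each, 10 had 2 and 1 had 3. In pPrE, 11 of 23 had 2 receptors, 8 had 3 and 4 had all 4. Fgfr1 was the receptor with the highest FPKM in 24 of 25 pEPI cells, with Fgfr4 in C4. In pPrE, Fgfr2 was the highest in 11 cells, Fgfr1 in 8, Fgfr3 in 3 (F5, D1 and C6) and Fgfr4 in 1 (D3).

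Many combinations of the 5 members were found, some of them in 1 cell only. The most common was Fgfr1 with Fgfr2 and no Fgf4, in 13 cells, 10 of them pPrE. Next was Fgf4 with Fgfr1 and no other receptor, in 12 cells, all pEPI. A further 5 cells, all pPrE, had Fgfr1, Fgfr2 and Fgfr3, and 4 cells had Fgf4, Fgfr1 and Fgfr2, B2, E2 and E5 of pEPI and A1 of pPrE. C6 and F6, both pPrE, carried all 5 genes. B4 and C1, both pEPI, carried Fgfr1 alone.

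**Figure D2:**
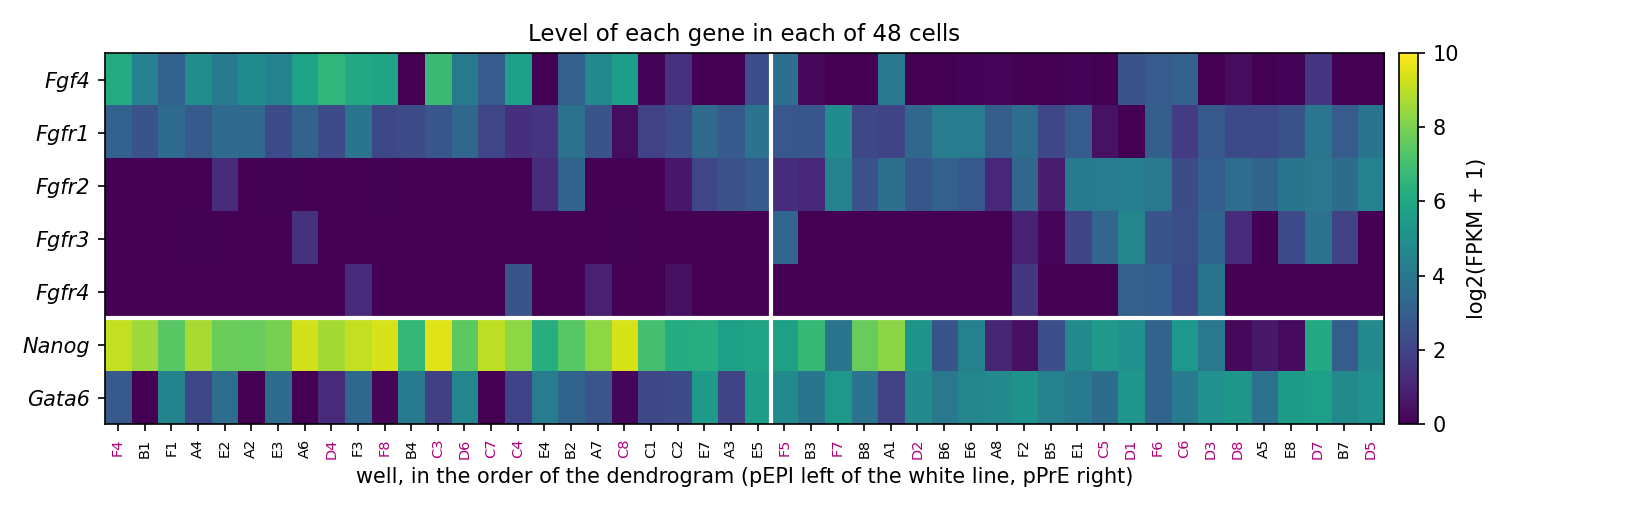
Level of the 5 members, Nanog and Gata6 in each of the 48 cells as log2(FPKM + 1), with cells as columns in the order of the study's dendrogram and well names in black for cells with and in magenta for cells without Y-linked counts. In the 25 pEPI cells left of the white line Fgf4 and Fgfr1 carry most of the signal of the 5 members, and in the 23 pPrE cells right of it Fgfr1 and Fgfr2 do.

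Fgf4 and Fgfr2 were found together in some cells of both branches. Of 48 cells, 16 had Fgf4 without Fgfr2, all pEPI, 20 had Fgfr2 without Fgf4 (3 pEPI and 17 pPrE), 10 had both (4 and 6), and 2 pEPI cells had neither. The 10 cells highest in Fgf4, with 27.95 to 112.6 FPKM, were all pEPI and had at most 0.0298 FPKM of Fgfr2. The 10 cells highest in Fgfr2, with 10.8 to 20.6 FPKM, were all pPrE and had at most 15.2 FPKM of Fgf4, with a median of 0.163. Among them A1, D1, F6 and D7 carried Fgf4, and each of the 6 pPrE cells with Fgf4 also carried Fgfr2. The number of 10 cells was chosen with the values known.

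**Figure D3:**
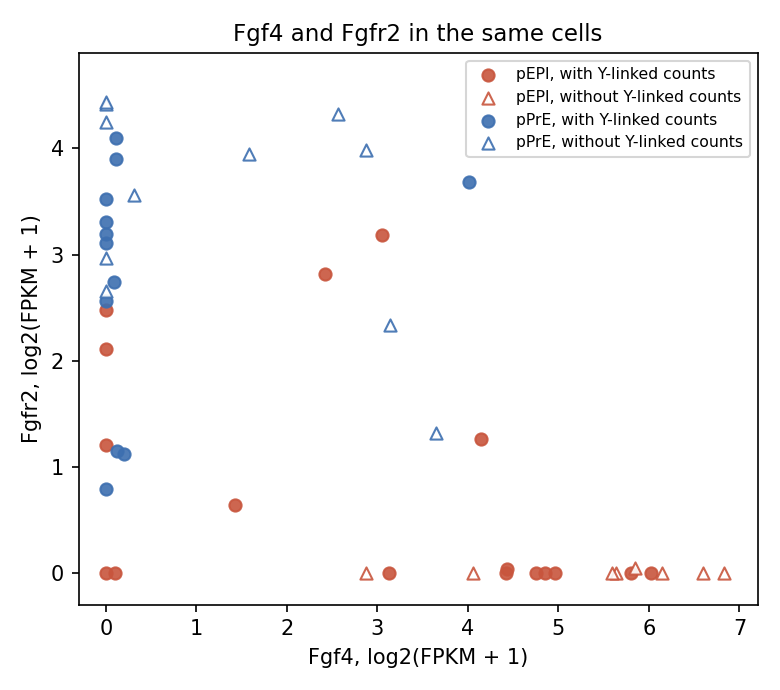
Fgf4 (x axis) against Fgfr2 (y axis) in each of the 48 cells, both as log2(FPKM + 1), coloured by branch, with filled circles for cells with Y-linked counts and open triangles for cells without them. The 10 cells with most Fgf4 lie at or near 0 of Fgfr2, and 10 cells carry both genes.

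Within a branch, levels on the log2(FPKM + 1) scale were compared cell by cell. The cells come from the same 3 embryos, and both genes of a pair come from the same library. In the 25 pEPI cells Fgf4 went with Nanog (Spearman's rho 0.87, Pearson's r 0.87) and against Pdgfra (-0.81 and -0.80) and Fgfr2 (-0.52 and -0.50). With Gata6 the values were -0.47 and -0.46, and with Fgfr1 -0.03 and 0.00. Total counts were little related to Fgf4 in these cells (-0.15 and -0.16).

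The same pairs were looked at within the sets of Y-linked counts. In the 17 pEPI cells with Y-linked counts, Fgf4 and Nanog had a rho of 0.89 and an r of 0.88, and Fgf4 and Fgfr2 had -0.53 and -0.42. For Fgf4 they were -0.81 and -0.74 with Pdgfra, -0.44 and -0.45 with Gata6, and 0.33 and 0.43 with Fgfr1. In the 8 pEPI cells without Y-linked counts, Fgf4 and Nanog had 0.48 and 0.38, Fgf4 and Pdgfra had -0.29 and -0.59, and Fgfr2 was at or near 0. There, Fgf4 had 0.24 and 0.00 with Gata6 and 0.31 and -0.05 with Fgfr1. In the 23 pPrE cells, Fgf4 and Nanog had a rho of 0.32 and an r of 0.44, with Fgf4 carried by 6 of the cells, and 0.26 and 0.28 in the 11 of them without Y-linked counts. Fgf4 and Fgfr2 had -0.02 and 0.00 in the 23 and -0.48 and -0.46 in the 11. With Pdgfra, Fgf4 had -0.12 and -0.18 in the 23 and 0.52 and 0.53 in the 11, the opposite sign. With Gata6 it had -0.05 and -0.37, then -0.19 and -0.27, and with Fgfr1 -0.28 and -0.31, then -0.36 and -0.28.

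Receptors were also compared with each other. In pPrE, Fgfr3 and Fgfr4 had a rho of 0.50 and an r of 0.54, Fgfr1 and Fgfr3 had -0.33 and -0.46, and Fgfr1 and Fgfr2 had 0.14 and 0.02 (n = 23 cells). Fgf4 and Fgfr3 had 0.37 and 0.42, and within the 11 pPrE cells without Y-linked counts 0.42 and 0.56, where Fgfr1 and Fgfr3 had -0.51 and -0.63. These 11 cells include D1, which had 0 counts of Fgfr1, the highest Fgfr3 and the fewest total counts. The pair Fgfr3 and Fgfr4 was not compared within the sets. Of pPrE cells without and with Y-linked counts, 8 of 11 and 4 of 12 carried Fgfr3, and 4 of 11 and 1 of 12 carried Fgfr4. In pEPI, Fgfr1 and Fgfr2 had 0.27 and 0.39 (n = 25 cells), and 0.26 and 0.36 in the 17 cells with Y-linked counts. With Nanog, Fgfr2 had -0.58 and -0.65 in pEPI, and -0.66 and -0.62 in those 17. In pPrE this pair had -0.04 and -0.01, with -0.08 and -0.03 in the 12 cells with Y-linked counts and -0.34 and -0.20 in the 11 without. With log2 total counts, Fgfr1 had 0.21 and 0.40 in the 23 pPrE cells, and Fgfr2 had 0.14 and 0.22. In the 12 with Y-linked counts these were 0.43 and 0.51 for Fgfr1 and 0.25 and 0.52 for Fgfr2. In the 11 without they were 0.12 and 0.41, and -0.05 and -0.15.

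The genes whose pattern was most like each member were ranked by Spearman's rho over the 48 cells, among 8928 genes (8929 for Fgfr3) with a mean log2(FPKM + 1) above 1. This rho holds the difference between the branches, so it is followed by rho within pEPI and within pPrE. For Fgf4 the highest were Nanog (0.77, then 0.87 and 0.32), the tight junction gene Cldn4 (0.76, 0.62 and 0.63), Ubxn2a (0.74, 0.53 and 0.49), the water and glycerol channel Aqp3 (0.74, 0.62 and 0.38) and Mier3 (0.71, 0.70 and 0.39). The lowest were Pdgfra (-0.73, then -0.81 and -0.12), Cpn1 (-0.72, -0.67 and -0.38) and the glutamate transporter Slc1a3 (-0.71, -0.56 and -0.34).

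For Fgfr2 the highest were Sdc4 (0.84, then 0.52 and 0.54), a heparan sulfate proteoglycan, the collagen chaperone Serpinh1 (0.83, 0.45 and 0.75), Tfpi (0.79, 0.35 and 0.47), the laminin chain Lama1 (0.78, 0.48 and 0.26) and the forkhead factor Foxq1 (0.78, 0.32 and 0.55). The lowest were Aff1 (-0.78, -0.40 and -0.44), Spic (-0.77, -0.15 and -0.50) and Nanog (-0.74, -0.58 and -0.04). For Fgfr3 they were Bnip2 (0.68, 0.58 and 0.59), the thrombin receptor F2r (0.67, 0.19 and 0.65), Cyp4f14 (0.64, with no count in pEPI, and 0.58 in pPrE), Dok2 (0.63, 0.06 and 0.53) and Stom (0.60, -0.11 and 0.55). At the other end were Glrx (-0.63, -0.53 and -0.50), Psap (-0.62, -0.24 and -0.61) and Crxos (-0.60, -0.25 and -0.54). In pEPI, Fgfr3 had a count in 3 of 25 cells, so the rho values of Fgfr3 within pEPI say little.

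For Fgfr1 the highest were Atg13 (0.52, then 0.41 and 0.60), Smarcc1 (0.52, 0.59 and 0.51), Lhfpl2 (0.51, 0.62 and 0.58), Snrpa1 (0.50, 0.41 and 0.59) and Idh1 (0.49, 0.27 and 0.64). Its lowest were Stmn1 (-0.56, -0.71 and -0.43), the pseudogene Gm10136 (-0.53, -0.62 and -0.44) and Ndrg1 (-0.52, -0.23 and -0.79). Fgfr4, carried by 9 cells, was not ranked.

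Other ligands were few. Of the 21 other FGF genes, 10 had a count and 3 a mean of at least 1 FPKM, of which 0 were higher and 1 lower in pPrE by at least 2-fold, where 6.2% of all genes were higher and 9.03% lower. Fgf10, a ligand known for Fgfr2 in branching organs, was counted in all 25 pEPI and 23 pPrE cells, at 69.1 ± 42.3 FPKM (SD, n = 25 cells) and 91.8 ± 39.7 (SD, n = 23 cells), a log2 ratio of 0.41 (0.39 to 0.43). This mean lay above that of Fgf4 in both branches. Of its 4601 exon bases, 123 are shared with Gm16263 on the other strand, which had 112 counts over the 48 cells. Fgf3 was carried by 9 pEPI and 11 pPrE cells, at 5.06 ± 8.36 and 8.72 ± 22.7 FPKM (SD, n = 25 and 23 cells; log2 ratio 0.79), and Fgf13, an intracellular member, was the lower one (1.49 and 0.719 FPKM, log2 ratio -1.05). Fgf13 passed the filter through its pEPI cells alone, so the count of 1 lower gene cannot be read against the share of all genes. The list had a median log2 ratio of 0.41 over the 3 genes.

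At the cell surface, 6 of 18 coreceptors and partners had a mean of at least 1 FPKM, and 3 of these were higher in pPrE and 0 lower (all genes: 6.2% and 9.03%), with a median log2 ratio of 1.06. Sdc4 was the most abundant, at 81.0 ± 62.9 FPKM in pEPI and 322 ± 109 in pPrE (SD, n = 25 and 23 cells; log2 ratio 1.99), a difference larger than the SD of either branch. Flrt3, a membrane protein that can bind FGF receptors, had 4.54 ± 9.29 and 28.2 ± 22.6 FPKM (log2 ratio 2.64) and was carried by 9 of 25 and 22 of 23 cells. Klb, a coreceptor of endocrine FGFs, had 2.03 and 5.09 FPKM (1.33), and the glypican Gpc4 had 9.42 and 14.7 (0.65).

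Among the 18 enzymes that build or trim heparan sulfate, 14 passed the filter, 2 were higher in pPrE and 0 lower (all genes: 6.2% and 9.03%), with a median log2 ratio of 0.21. The sulfotransferase Hs3st1 had 3.52 ± 9.08 and 14.1 ± 23.6 FPKM (SD, n = 25 and 23 cells; log2 ratio 2.0) and the linker enzyme B4galt7 3.02 ± 3.91 and 7.57 ± 7.23 (1.32). Ugdh, which makes UDP-glucuronic acid, was the most abundant, at 12.6 and 21.5 FPKM (0.77), and the endosulfatase Sulf2 had 5.54 and 4.97 (-0.16).

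The relay from receptor to Erk had 20 genes, of which 15 passed the filter, 1 was higher in pPrE and 0 lower, with a median log2 ratio of 0.03. Over all genes, 6.2% were higher and 9.03% lower, so a single gene of 15 is near the share of all genes that were higher. The most abundant were Map2k1 (40.3 ± 16.6 and 40.8 ± 16.2 FPKM, SD, n = 25 and 23 cells; log2 ratio 0.02) and Nras (25.9 and 34.04; 0.39). Mapk3, which encodes Erk1, was the higher one, at 1.93 ± 4.64 and 5.08 ± 5.13 FPKM (1.40), and was carried by 7 of 25 and 16 of 23 cells.

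Genes known as targets or feedback inhibitors of Erk went in both directions. Of 19 genes, 14 passed the filter, 3 were higher in pPrE and 3 lower (all genes: 6.2% and 9.03%), with a median log2 ratio of 0.01. Of the higher genes, Spred1 and Il17rd passed the filter through their pPrE cells alone. The count of 3 higher genes therefore cannot be read against the share of all genes. The phosphatase gene Dusp4 was higher (5.97 ± 11.5 and 30.99 ± 22.99 FPKM, SD, n = 25 and 23 cells; log2 ratio 2.38), as were the feedback inhibitors Spred1 (0.622 and 1.84; 1.57) and Il17rd (0.873 and 1.93; 1.14). The lower ones were the ETS factor Etv5 (62.4 ± 31.6 and 20.98 ± 18.1; -1.57), Myc (45.7 and 17.8; -1.36) and the Erk phosphatase gene Dusp6 (14.9 and 7.36; -1.02). Spry2, the most abundant of the list, had 232 ± 130 and 259 ± 118 FPKM (0.16), Fos 78.3 and 47.9 (-0.71). Of the factors that bind the Fgf4 enhancer, Pou5f1 had 369 ± 51.5 and 345 ± 68.0 FPKM (-0.10) and Sox2 12.4 ± 10.4 and 3.48 ± 4.27 (-1.83).

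Gene models bear on these counts, since Smart-seq2 does not mark the strand and how reads on overlapping genes were counted was not given in the sources used here. Fgf4 and Fgfr4 share no exon base with another gene. Fgfr1 shares 164 of 9875 exon bases with the antisense gene Gm16159 (27 counts over the 48 cells), Fgfr3 shares 998 of 7158 with G630022F23Rik on the other strand (33 counts), and Fgfr2 shares 314 of 10328 with Ctbp2 (5945 counts) through a transcript that starts far upstream. Reads on shared bases cannot be told apart by gene.

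The bases before the start of Fgf4 and of Fgfr3, the members with the lowest and the highest log2 ratio, are shown from a table of RefSeq promoters on GRCm38.p6, which held 4 of the 5 members but not Fgfr1. The TATA box motif TATAAA, its variant TATATA, the GC box GGGCGG, the CCAAT box and the GATA motif GATAAG were searched on both strands, and matches are in capitals. The Fgf4 stretch (chr7:144861136-144861385, plus strand) ends at the base before the start and lies in an intron of a longer annotated transcript of Fgf4. It holds overlapping matches of TATATA in a run that begins 30 bases before the start, 2 of GGGCGG and 1 of CCAAT on the other strand. The Fgfr3 stretch (chr5:33721474-33721673, plus strand) stops at the first annotated exon, upstream of the RefSeq start at 33721724, and holds 2 matches of GGGCGG on the other strand and 1 of CCAAT, also on the other strand.
Fgf4: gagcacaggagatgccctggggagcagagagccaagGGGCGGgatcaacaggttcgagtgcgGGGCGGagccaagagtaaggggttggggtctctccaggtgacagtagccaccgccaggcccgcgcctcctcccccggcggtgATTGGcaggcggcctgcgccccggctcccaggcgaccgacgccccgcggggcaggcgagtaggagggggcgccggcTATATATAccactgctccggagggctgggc
Fgfr3: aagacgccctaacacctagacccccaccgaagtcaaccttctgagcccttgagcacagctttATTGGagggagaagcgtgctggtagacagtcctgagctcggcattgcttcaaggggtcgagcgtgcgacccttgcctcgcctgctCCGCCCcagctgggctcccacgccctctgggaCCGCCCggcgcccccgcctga

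Of 32851 promoter windows of 250 bases, 5.25% hold TATATA, 32.7% GGGCGG, 33.8% CCAAT, 12.4% TATAAA and 6.55% GATAAG, and of windows of 200 bases 24.6% hold GGGCGG and 28.4% CCAAT. GC bases made up 71.2% of the Fgf4 stretch and 65.0% of that of Fgfr3, against medians of 52.4% and 51.5% over all windows of those lengths. A match is a description of the letters and not a binding site. A further RefSeq start of Fgfr3, at 33722306, has a stretch (chr5:33722056-33722305) with 2 matches of GGGCGG and 72.8% GC bases, which is not printed. Fgfr2, whose RefSeq start lies 545 bases from the nearest start in GENCODE M21, and Fgfr4 are not shown.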

How the data were processed

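Single E3.75 ICM cells were sequenced by Smart-seq2. The deposited values are raw read counts per gene, which the authors made from alignments to mm10; the submitters' processing notes name STAR and HTSeq, and the methods Ensembl 87 genes and a minimum of 500000 mapped reads per library. The count table had 0 columns without a sample. The 5 members and the gene lists were chosen with earlier results of these data known.

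FPKM used the median of ratios for library size and, for length, the union of exons in GENCODE M21 (GRCm38), which is not the annotation of the authors. Log2 levels per cell used a pseudocount of 1, and log2 ratios of mean FPKM none. Comparisons across genes used a mean of at least 1 FPKM and a log2 ratio of at least 1, and Y-linked counts a minimum of 100 per cell. The limit of a share of 0 is 3 over the number of cells. Named genes were the members, the 5 most and 3 least like each member carried by at least 10 cells, genes of each list past the fold, up to 3 of the most abundant of each list, and markers of the lineages. The steps were tested on simulated data.

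Other settings were run for the log2 ratios of the members (library size, summary, pseudocount, thinning to 1718970 counts, grouping of cells and cells left out), for the shares of cells with a member (detection minimum, thinning, grouping and sets of Y-linked counts) and for the cells with Fgf4 and a receptor (detection minimum and thinning). Gene lists were rerun with no filter on low values, and the counts over all genes with no filter and with another library size. Correlations, likeness, receptor make-up, combinations and the cells with Fgf4 and Fgfr2 were not rerun. For the log2 ratios, leaving out the highest cell of each branch, also within each set of Y-linked counts, was added after the data had been seen. Tables were made with pandas 2.3.3 and numpy 2.4.6, intervals with scipy 1.17.1 and plots with matplotlib 3.10.9, all under Python 3.11.15.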

Additional observations from a re-analysis of the deposited data

How the results depend on the processing

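Under the other settings, 60 of 85 log2 ratios moved by less than 1.5-fold and 60 of 70 shares stayed inside their intervals. The sign was kept in 17 of 17 alternatives for Fgf4 (-4.46 to -2.91), Fgfr2 (2.35 to 11.70) and Fgfr3 (0.97 to 11.44), and in 16 of 17 for Fgfr1 (-0.00 to 0.92) and Fgfr4 (0 to 3.62). Where values moved further the cause was not tested.

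As a difference of mean log2(FPKM + 1), the values were -2.91 for Fgf4, 2.55 for Fgfr2, 1.31 for Fgfr3 and 0.39 for Fgfr4; with 0.1 in place of 1 they were -4.46, 4.81, 2.79 and 0.67. As a difference of medians, Fgfr3 had 0.97 and Fgfr4 0. From summed CPM Fgfr4 had 1.68. Between 2 Ward clusters made without the members, of 16 cells, all pEPI, and 32, of which 9 were pEPI, the log2 ratio was 6.43 for Fgfr2, 4.51 for Fgfr3 and 1.49 for Fgfr4, and the first cluster carried Fgf4 in 100% and Fgfr2 in 6.25% of its cells. Within cells with Y-linked counts, the log2 ratio was 2.35 for Fgfr2, 3.10 for Fgfr3 and 0.22 for Fgfr4, and pPrE shares were 8.33% for Fgf4 and 100% for Fgfr1. Within cells without them it was 0.92 for Fgfr1, 11.70 for Fgfr2 and 10.78 for Fgfr3, and pEPI shares were 100% for Fgf4 and 0% for Fgfr2 and for Fgfr3.

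Without the 8 cells of letter A, Fgfr3 had 11.44, and without those of letter D 4.81. Fgfr4 had 3.62 without letter C, 1.22 without D and 1.63 without its highest cell, D3. In the alternatives added after the data had been seen, Fgfr3 had 10.52 without A6, and Fgfr4 had 3.77 without C4 and 1.63 without D3. Among cells with Y-linked counts these gave -8.60 for Fgf4 without A1, 8.95 for Fgfr3 without A6 and 1.16 for Fgfr4 without F3, and among the others 1.57 for Fgfr4 without D3. Fgfr4 without F2 or C4, and Fgfr2 and Fgfr3 without the only pEPI cell with a count, gave no ratio within a set. At 1 count, 52.2% of pPrE cells had Fgf4, and at 5 and at 10 CPM 4% of pEPI cells had Fgfr4. Cells with Fgf4 and a receptor numbered 23 to 33 of 48 in these settings and after thinning.

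With no filter on low values, 19.2% of 21858 genes were higher in pPrE and 23.3% lower, and more list genes passed the fold in pPrE: 5 higher and 2 lower among other ligands, 4 lower among surface partners, 6 higher among heparan sulfate enzymes, 2 higher and 1 lower in the relay, and 2 higher and 4 lower among trophectoderm markers. Such genes rest on few cells.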

Other observations

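The data hold RNA and neither protein nor signalling; whether cells with Fgf4 secreted it, or cells with a receptor transcript had the receptor at the surface, was not measured. Absence of a gene in a cell means fewer than 1 CPM at this depth. A single time point without labelled embryos gives no order of events and no error between embryos. Branches were read by eye from a picture of the dendrogram, and both branches and levels come from the same cells. Splitting reads between overlapping genes, splice forms of the receptors and the part of embryo, sex or lineage state in the differences between the sets of Y-linked counts were not tested.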
